A study of Homo sapiens with 12 samples.

Results

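The transcription factor genes PRRX1, PRRX2, TWIST1, TWIST2, SNAI1, SNAI2, ZEB1, ZEB2 and TCF4, which act in mesenchymal and invasive cell states, were followed in A375 cells. They are 9 of the 58347 genes counted in each library, and all 9 were among the 16740 genes with enough counts to be tested. The list was set by known function except for PRRX1, but with earlier results of these data known, so the choice was not blind. PRRX1 was chosen by its measured tretinoin responses in these libraries (higher with tretinoin alone, lower when tretinoin joined vemurafenib). It is therefore described below without a test. A375 is an established human melanoma cell line with mutant BRAF, and every library of the series came from this line, so that no other melanoma is represented. Cells were exposed for 8 h to DMSO vehicle, tretinoin, vemurafenib, or vemurafenib and tretinoin together, with 3 replicates in each of the 4 groups and a concentration of 5 µM listed for every group, the vehicle included. Vemurafenib blocks mutant BRAF, whereas tretinoin, a retinoid, activates the retinoic acid receptors.

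Epithelial cells that turn mesenchymal switch on repressors of the SNAI, ZEB and TWIST families, which bind E-box elements in genes for cell junctions. Cells of the melanocyte lineage use the same families in another way: SNAI2 and ZEB2 belong to the normal melanocyte program, whereas ZEB1 and TWIST1 are linked to the dedifferentiated, invasive state, and the exchange of one pair for the other is known to respond to BRAF signaling. TCF4 (also called E2-2) is a basic helix-loop-helix E protein that pairs with TWIST proteins, and PRRX1 and PRRX2 are paired-related homeobox factors of embryonic mesenchyme.

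Total counts per library lay between 13510235 and 21534377, and values below are CPM (normalized counts scaled to a common library size) after trimmed mean of M values (TMM) scaling. Replicates differed by more than sampling noise in every group, with tretinoin replicate 1 farthest from its partners (chi-square per degree of freedom of 19.5 and 22.4, against 2.59 to 9.14 for the other 10 pairs), so tretinoin results are also given without it. Of the melanocyte lineage markers, SOX10 had 0 counts in all 12 libraries, which allows at most 0.222 CPM in the shallowest one, TYR had 0 to 1 counts, MLANA 1 to 19, PMEL 8 to 25, DCT 0 to 18, S100B 84 to 206 and MITF 245 to 658. The labelled cell type thus showed MITF and S100B but little of the pigment program. In bulk RNA, fewer cells expressing a gene and less of its RNA per cell cannot be told apart.

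Vemurafenib divided the factors into 3 genes that rose (SNAI2, TCF4 and ZEB2), 4 that fell (SNAI1, ZEB1, TWIST2 and PRRX2) and 1, TWIST1, that did not pass the test. Thus 7 of the 8 tested factors were called at an adjusted p below 0.05 by the quasi-likelihood test of edgeR, adjusted by the Benjamini-Hochberg method over all genes. This stands against 52.6% of all tested genes in the same comparison, with 26.4% called higher and 26.3% called lower, so that a call as such was common in these cells. In the SNAI and ZEB families the paralogues went in different directions, SNAI2 against SNAI1 and ZEB2 against ZEB1.

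**Figure D1:**
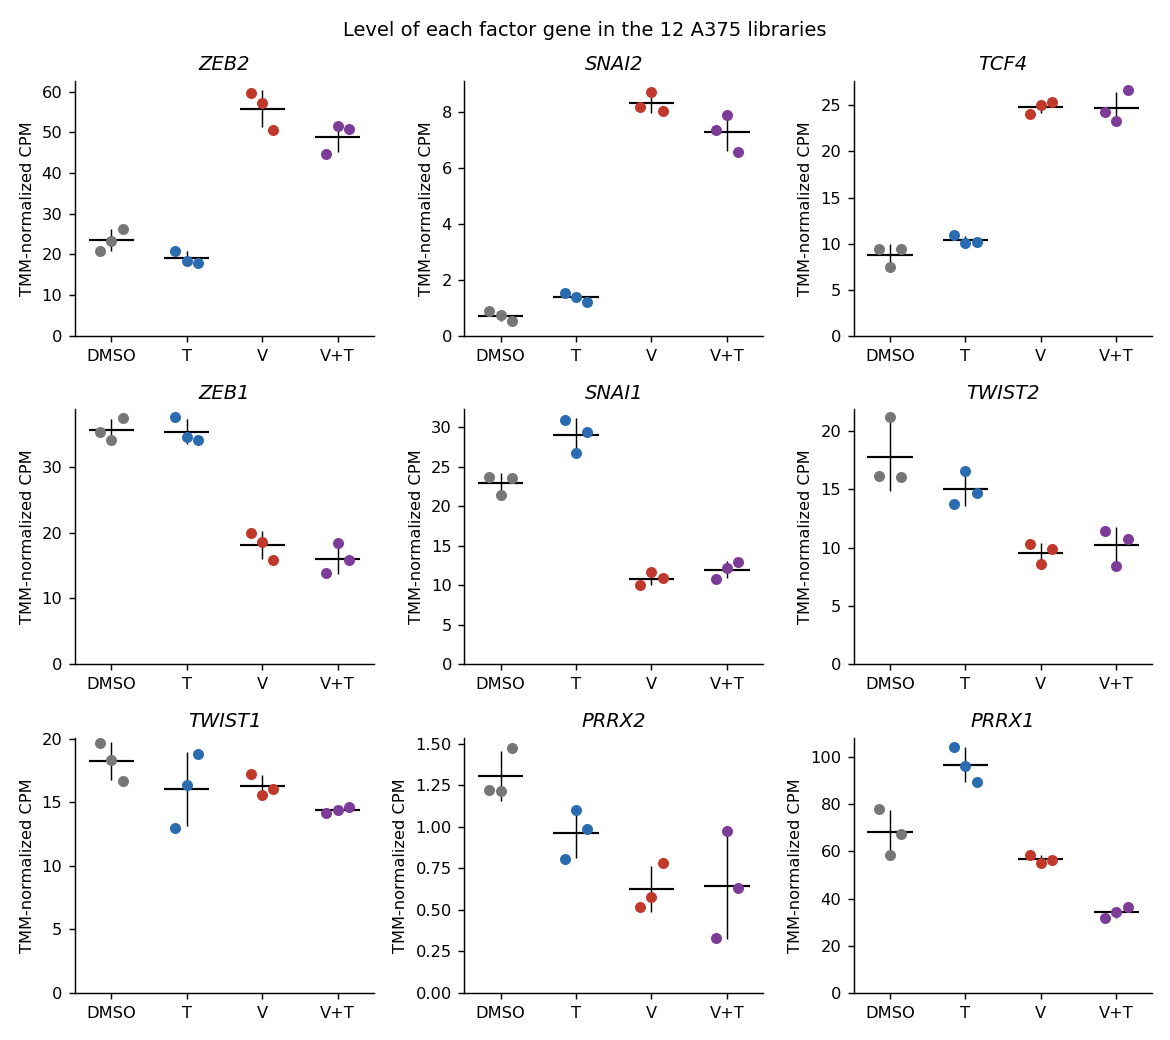
Level of each of the 9 factor genes in the 12 libraries, as TMM-normalized CPM on a linear axis from 0. Points are libraries, horizontal bars are group means and vertical bars are ± 1 SD (n = 3), for DMSO, tretinoin (T), vemurafenib (V) and the combination (V+T). SNAI2, TCF4 and ZEB2 sit higher in both groups with vemurafenib, and PRRX1 is highest with tretinoin alone and lowest in the combination.

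SNAI2, a zinc-finger repressor needed for melanocyte development, had 0.902, 0.743 and 0.528 CPM in the 3 DMSO libraries (14, 11 and 10 counts) and 8.21, 8.71 and 8.05 CPM with vemurafenib (158, 181 and 134 counts). No vemurafenib library came near the DMSO range, although the DMSO values rest on few counts. The log2 fold change was 3.54 ± 0.20 (SE; 11.6-fold; edgeR adjusted p = 1.12e-10), the largest of the 9 genes in size. Its gene lies at chr8:48917604-48921740 on the minus strand of GRCh38 (ENSG00000019549.9).

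TCF4 (ENSG00000196628.15, chr18:55222331-55664787, minus strand), the E protein, had 9.41, 7.43 and 9.45 CPM in DMSO and 24.1, 25.0 and 25.4 CPM with vemurafenib. All vemurafenib libraries lay well above all DMSO libraries. The log2 fold change was 1.496 ± 0.10 (SE; edgeR adjusted p = 1.75e-09).

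ZEB2 (ENSG00000169554.18, chr2:144364364-144524583, minus strand), the ZEB family member of normal melanocytes, had 20.9, 23.4 and 26.4 CPM in DMSO and 59.6, 57.1 and 50.7 CPM with vemurafenib. Again the groups were apart, and the log2 fold change was 1.24 ± 0.10 (SE; edgeR adjusted p = 1.03e-08).

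ZEB1 (ENSG00000148516.21, chr10:31318495-31529814, plus strand), its paralogue of the invasive state, had 35.2, 34.1 and 37.4 CPM in DMSO and 19.9, 18.6 and 15.9 CPM with vemurafenib. Here every vemurafenib library lay below every DMSO library, and the log2 fold change was -0.97 ± 0.10 (SE; edgeR adjusted p = 5.03e-07).

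SNAI1 (ENSG00000124216.3, chr20:49982999-49988886, plus strand), the zinc-finger repressor that starts epithelial-mesenchymal transition in the embryo, had 23.7, 21.4 and 23.6 CPM in DMSO and 10.0, 11.6 and 10.9 CPM with vemurafenib. Its groups did not overlap either, with a log2 fold change of -1.08 ± 0.10 (SE; edgeR adjusted p = 8.36e-08).

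TWIST2 (ENSG00000233608.3, chr2:238848032-238910543, plus strand), a basic helix-loop-helix repressor of mesenchymal progenitors, had 16.2, 21.2 and 16.0 CPM in DMSO and 10.3, 8.61 and 9.86 CPM with vemurafenib. The vemurafenib libraries were all lower, and the log2 fold change was -0.89 ± 0.14 (SE; edgeR adjusted p = 2.9e-05). Its paralogue TWIST1 (ENSG00000122691.12, chr7:19020991-19117672, minus strand) had 19.7, 18.4 and 16.7 CPM in DMSO and 17.2, 15.5 and 16.0 CPM with vemurafenib. The TWIST1 ranges overlapped, and the log2 difference was -0.16 (95% interval -0.40 to 0.08; edgeR adjusted p = 0.244).

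PRRX2 (ENSG00000167157.10, chr9:129665641-129722674, plus strand) was the faintest factor with vemurafenib, at 0.519, 0.577 and 0.781 CPM, against 1.22, 1.22 and 1.48 CPM in DMSO. These values came from 6 to 28 counts per library over the whole series. The groups were apart and PRRX2 was called lower (log2 fold change -1.08 ± 0.35, SE; edgeR adjusted p = 0.015). The call was lost, with adjusted p between 0.053 and 0.0628, when DMSO replicate 3, vemurafenib replicate 1 or vemurafenib replicate 2 was left out.

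**Figure D2:**
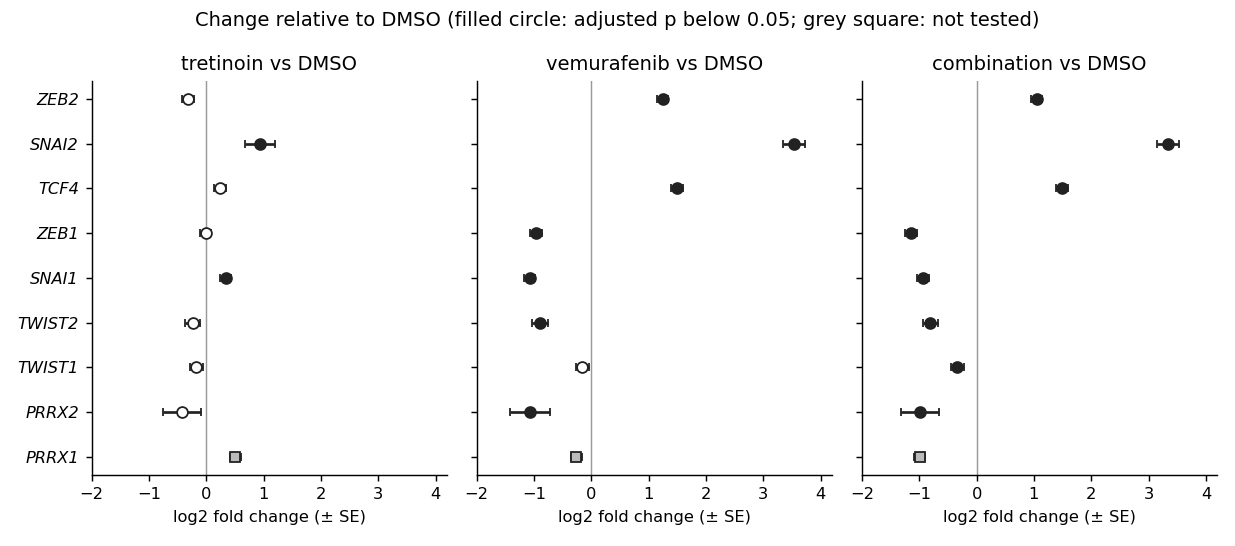
Log2 fold change of each factor gene relative to DMSO, with bars of ± 1 SE, for tretinoin, vemurafenib and the combination. Filled circles are genes called at an adjusted p below 0.05, open circles are genes not called, and the grey square is PRRX1, which was not tested. SNAI2 lies farthest to the right with vemurafenib (3.54) and with the combination (3.34).

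Because 2 paralogues are read in the same library, their count ratio does not depend on the scaling between libraries. ZEB2 had 0.595, 0.687 and 0.706 counts for each ZEB1 count in the DMSO libraries, and 2.997, 3.08 and 3.19 with vemurafenib. ZEB1 was thus the more counted gene in DMSO and ZEB2 the more counted one with vemurafenib, in every library. These ratios are not corrected for length, and the exons of all annotated transcripts together are longer for ZEB2 (25058 against 8650 bases). Per kilobase of these exons, the mean ratio was 0.229 in DMSO and 1.07 with vemurafenib. The length of the transcripts expressed in these cells was not measured. SNAI2 had 0.0382, 0.0347 and 0.0224 counts per SNAI1 count in DMSO and 0.819, 0.748 and 0.740 with vemurafenib, so that SNAI1 stayed the more counted gene in all of these libraries. TWIST2 had 0.823, 1.15 and 0.962 counts per TWIST1 count in DMSO and 0.596, 0.554 and 0.614 with vemurafenib, and these ranges did not overlap. No test was made of the ratios.

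**Figure D3:**
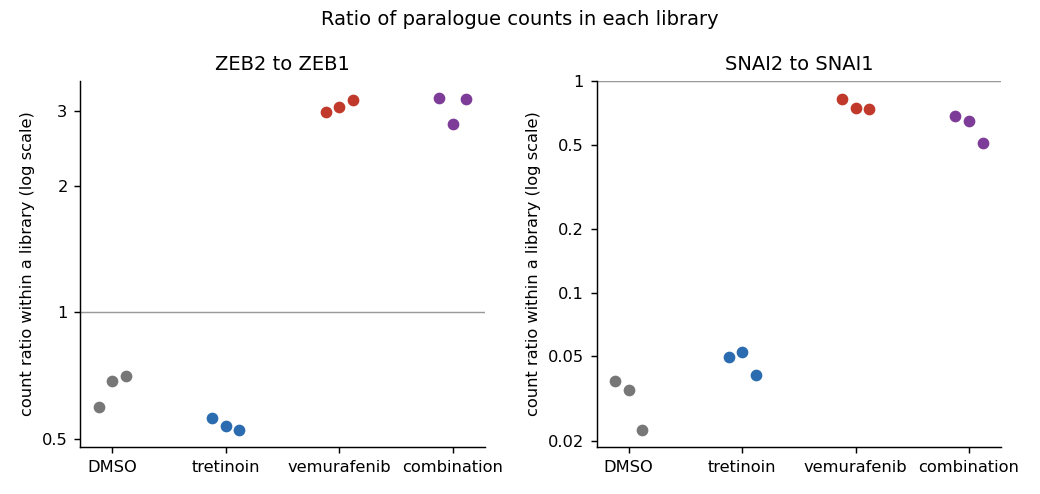
Counts of ZEB2 per count of ZEB1 (left) and of SNAI2 per count of SNAI1 (right) in each library, on log axes, by treatment group. Points are libraries, and the grey line marks equal counts. The ZEB ratio is 0.524 to 0.706 without vemurafenib and 2.80 to 3.24 with it, and the SNAI ratio stays below 1 throughout.

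Levels of different factors were compared per kilobase of exon (CPM per kb). The exon length is that of all annotated transcripts together, which can exceed that of the RNA expressed. Values of genes with long annotated exons, such as TCF4 (27828 bases) and ZEB2 (25058 bases), can therefore be too low, and the order below depends on the annotation. In DMSO, SNAI1 was highest at 13.6 ± 0.756 (SD, n = 3), followed by TWIST2 at 9.48 ± 1.57, TWIST1 at 8.97 ± 0.736 and PRRX1 at 8.26 ± 1.17, each of which overlapped the next in order from TWIST2 to PRRX1. ZEB1 stood apart at 4.11 ± 0.195, PRRX2 at 0.996 ± 0.113 and ZEB2 at 0.941 ± 0.109 overlapped, and TCF4 at 0.315 ± 0.0414 and SNAI2 at 0.214 ± 0.0554 were lowest. With vemurafenib, TWIST1 led at 8.01 ± 0.431 CPM per kb, PRRX1 at 6.88 ± 0.212 and SNAI1 at 6.43 ± 0.480 overlapped, and TWIST2 followed at 5.10 ± 0.462. SNAI2 at 2.45 ± 0.101, ZEB2 at 2.23 ± 0.185 and ZEB1 at 2.09 ± 0.237 formed an overlapping middle group, above TCF4 at 0.892 ± 0.0234 and PRRX2 at 0.478 ± 0.105. By this measure SNAI2 moved from the last place to the fifth, level with ZEB2.

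Tretinoin alone gave smaller differences. Of the 8 tested factors, 2 were called and both were higher, SNAI1 and SNAI2, where 5.68% of all tested genes were called, 3.48% higher and 2.2% lower. SNAI1 had 30.9, 26.7 and 29.4 CPM with tretinoin, all above the DMSO libraries, with a log2 fold change of 0.34 ± 0.09 (SE; edgeR adjusted p = 0.0399). SNAI2 had 1.54, 1.395 and 1.21 CPM, also all above DMSO, with a log2 fold change of 0.94 ± 0.26 (SE; edgeR adjusted p = 0.045) on 21 to 24 counts against 10 to 14. Both genes lay in the same direction in every alternative, but both calls were easily lost. Over 13 alternatives the adjusted p ran from 0.0247 to 0.179 for SNAI1 and from 0.0365 to 0.186 for SNAI2, each past 0.05 in 8 of them. Without tretinoin replicate 1 the adjusted p was 0.0934 for SNAI1 and 0.116 for SNAI2. The SNAI1 call was also lost without any single DMSO library (adjusted p = 0.0638, 0.179 and 0.073) or without tretinoin replicate 3 (0.0658), and the SNAI2 call without DMSO replicate 2 (0.124), DMSO replicate 3 (0.167) or tretinoin replicate 2 (0.0883).

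Among the remaining factors, ZEB2 had 21.0, 18.4 and 17.8 CPM with tretinoin, of which the highest value lay within the DMSO range (log2 difference -0.31, 95% interval -0.53 to -0.10; edgeR adjusted p = 0.0861). Without tretinoin replicate 1 the ZEB2 difference was -0.39 and passed the threshold (edgeR adjusted p = 0.0337). TCF4 had 10.9, 10.1 and 10.2 CPM, all above DMSO, but was not called (log2 difference 0.24, 95% interval 0.01 to 0.47 before adjustment; edgeR adjusted p = 0.2). PRRX2 was below DMSO in all 3 tretinoin libraries, at 0.806, 1.10 and 0.986 CPM, and was not called either (edgeR adjusted p = 0.467). ZEB1 had 37.5, 34.4 and 34.0 CPM, TWIST1 13.0, 16.4 and 18.8 CPM, and TWIST2 13.8, 16.6 and 14.7 CPM. These 3 genes overlapped the DMSO range and had log2 differences of -0.01, -0.17 and -0.24, with edgeR adjusted p of 0.954, 0.392 and 0.295.

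With both drugs, all 8 tested factors were called relative to DMSO, 3 higher and 5 lower, against 53.6% of all genes (27.1% higher, 26.5% lower). SNAI2 had 7.37, 7.90 and 6.57 CPM in the combination, a log2 fold change of 3.34 ± 0.20 (SE; edgeR adjusted p = 2.56e-10) over DMSO. TCF4 had 24.3, 23.3 and 26.7 CPM and ZEB2 44.7, 51.4 and 50.8 CPM, with log2 fold changes of 1.49 and 1.05 and edgeR adjusted p of 1.55e-09 and 7.91e-08. The 3 factors that rose with vemurafenib alone were thus the 3 that were higher here.

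Lower with both drugs than with vehicle were ZEB1, SNAI1, TWIST2, PRRX2 and TWIST1. ZEB1 had 13.8, 18.4 and 15.9 CPM, SNAI1 10.8, 12.2 and 12.9 CPM, and TWIST2 11.5, 8.41 and 10.7 CPM, all below their DMSO libraries. Their log2 fold changes were -1.15, -0.93 and -0.80, with edgeR adjusted p of 6.31e-08, 3.84e-07 and 7.02e-05. TWIST1, which was not called with vemurafenib alone, had 14.2, 14.4 and 14.6 CPM and was called here with a small difference (log2 fold change -0.34 ± 0.11, SE; edgeR adjusted p = 0.0182). This call was lost without DMSO replicate 1 (adjusted p = 0.0752) and when libraries were scaled by their totals alone (0.19). PRRX2 had 0.330, 0.976 and 0.634 CPM (log2 fold change -0.99 ± 0.34, SE; edgeR adjusted p = 0.0202), a call lost without DMSO replicate 3 (0.0793), combination replicate 1 (0.0884) or combination replicate 3 (0.0563).

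Adding tretinoin to vemurafenib called none of the 8 tested factors, where 4.47% of all genes were called, 2.27% higher and 2.2% lower. The count was also 0 at an unadjusted p below 0.05 in edgeR, and 0 in the DESeq2 Wald test after adjustment. The 95% intervals of the log2 difference ran from -0.19 to 0.19 for TCF4, -0.38 to 0.00 for ZEB2, -0.40 to 0.05 for ZEB1, -0.07 to 0.36 for SNAI1, -0.42 to 0.06 for TWIST1, -0.47 to 0.08 for SNAI2 and -0.21 to 0.38 for TWIST2, and were widest for PRRX2 (-0.70 to 0.87). SNAI2 and TWIST1 were lower in all combination libraries than in all vemurafenib libraries without passing the test (edgeR adjusted p = 0.581 and 0.551). How many of all genes had such separate ranges, here or in the other comparisons, was not counted, so separate ranges are a description only. Adding vemurafenib to tretinoin called 6 of the 8, against 49.1% of all genes, 3 higher (24.1%) and 3 lower (25%). Far more of all genes were called here than on adding tretinoin to vemurafenib. The difference between these counts is therefore not particular to the factors. SNAI2, ZEB2 and TCF4 were higher by 2.41, 1.37 and 1.25 on the log2 scale (edgeR adjusted p = 3.83e-09, 4.07e-09 and 1.26e-08). SNAI1, ZEB1 and TWIST2 had log2 fold changes of -1.27, -1.13 and -0.57 (edgeR adjusted p = 7.16e-09, 8.77e-08 and 0.00211). PRRX2 and TWIST1 overlapped between the groups and were not called, and TWIST1 passed the threshold without tretinoin replicate 1 (-0.29; edgeR adjusted p = 0.0218). Comparisons named above share libraries, so their values are not independent of each other.

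Whether the response to tretinoin differed with vemurafenib present was tested as an interaction, the combination minus vemurafenib difference less the tretinoin minus DMSO difference on the log2 scale. None of the 8 tested factors was called, by edgeR or by DESeq2, where 0.806% of all genes were called by edgeR, 0.382% higher and 0.424% lower. At an unadjusted p below 0.05 there was 1, SNAI2, whose interaction was -1.13 (95% interval -1.75 to -0.51; edgeR adjusted p = 0.0871, or 0.123 without tretinoin replicate 1). Its tretinoin difference was 0.94 without vemurafenib and -0.20 with it, on the log2 scale. The next largest estimate in size, for PRRX2, was 0.52 with an interval from -0.54 to 1.57.

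PRRX1 (ENSG00000116132.11, chr1:170662728-170739419, plus strand) was included because its tretinoin response changed sign, so the following is a description of that choice. It had 78.0, 58.6 and 67.6 CPM in DMSO and 104.5, 96.2 and 89.6 CPM with tretinoin, so that each tretinoin library lay above each DMSO library. With vemurafenib it had 58.6, 55.2 and 56.4 CPM, the highest of which reached the DMSO range by a narrow margin. In the combination it had 31.9, 34.2 and 36.6 CPM, below every other library of the series. The log2 difference was 0.51 ± 0.09 (SE) for tretinoin over DMSO and -0.73 ± 0.09 for the combination over vemurafenib, and their difference was -1.23 ± 0.13. Relative to DMSO the combination stood at -0.99 and vemurafenib alone at -0.26. Over the alternatives the tretinoin difference ran from 0.41 to 0.62 and the difference on adding tretinoin to vemurafenib from -0.78 to -0.68. Without tretinoin replicate 1, the tretinoin difference was 0.45. Because PRRX1 was chosen by these values, neither their SE nor their stability is evidence for the pattern.

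**Figure D4:**
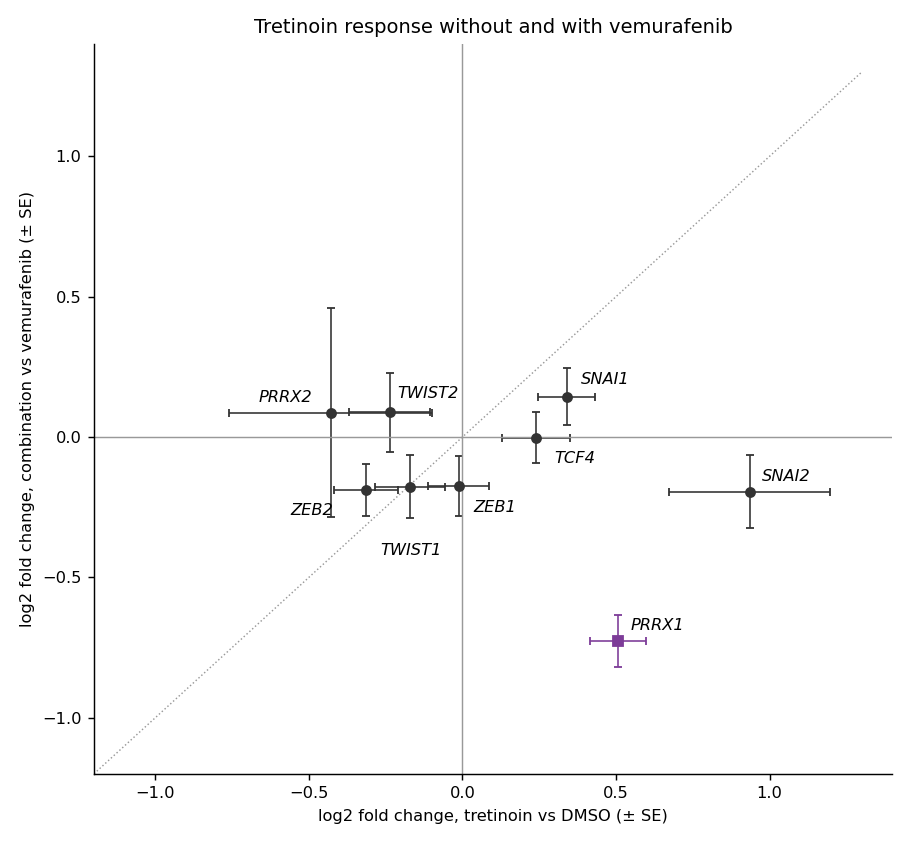
Log2 fold change of each factor gene on adding tretinoin to DMSO (horizontal axis) and to vemurafenib (vertical axis), with bars of ± 1 SE. The dotted line marks equal responses. PRRX1 (square, chosen for this pattern and not tested) lies at 0.51 and -0.73, and the other genes lie within 0.19 of zero on the vertical axis, apart from SNAI2 at -0.20.

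The genes whose log2 CPM followed a factor most closely over the 12 libraries were listed without a test, since the points share group differences. For SNAI2 they were LIMK2, SLC24A1 and GOLGA1 (Pearson r of 0.996, 0.994 and 0.992), for TCF4 RNF150, SOWAHA and NIT1 (0.996, 0.994 and 0.993), and for ZEB2 TP53INP2, PRR16 and FMO5 (0.991, 0.990 and 0.988). For ZEB1 they were MLX, KIF1A and SUMO3 (0.993, 0.992 and 0.991), for SNAI1 SERPINE2, TGM2 and HIVEP3 (each 0.992), and for TWIST2 TIMM23, H2AFX and EIF5A (0.971, 0.970 and 0.969). SERPINE2, a secreted inhibitor of serine proteases, followed SNAI1 from a mean of 3583 CPM in DMSO and 4242 CPM with tretinoin to 1649 CPM with vemurafenib and 1796 CPM in the combination. TWIST1 was followed less closely by MRPS28, ARL16 and TRIM7 (0.948, 0.931 and 0.916) and PRRX2 by PPHLN1, SIX4 and ZNF57 (0.930, 0.922 and 0.916).

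PRRX1 was followed by SFT2D2, SLC15A4, ST3GAL2, CYCSP45 and SLC39A10 (r of 0.963, 0.953, 0.946, 0.943 and 0.942). SLC39A10, a zinc importer, had means of 41.2 CPM in DMSO, 48.8 CPM with tretinoin, 28.97 CPM with vemurafenib and 21.7 CPM in the combination. SLC15A4, a lysosomal transporter of histidine and peptides, had 23.0, 28.0, 18.4 and 15.2 CPM in the same order. SFT2D2, the closest by r, moved less, with 68.5, 75.0, 65.6 and 59.2 CPM. ST3GAL2 also moved less, with 77.55, 81.85, 72.04 and 67.91 CPM. A high r therefore does not mean a change of like size. CYCSP45 is a processed pseudogene whose reads can be shared with its parent gene, so its values are uncertain.

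TWIST factors act in pairs with E proteins, and ID proteins tie up E proteins so that they cannot bind DNA. Of 15 such partners and corepressors, 6 were called higher and 5 lower with vemurafenib, against 52.6% of all tested genes called, with a median log2 fold change of -0.08 against 0.02 over all tested genes. ID2 had 1.35, 1.49 and 1.11 CPM in DMSO and 5.66, 6.16 and 5.89 CPM with vemurafenib, with a log2 fold change of 2.17 (edgeR adjusted p = 2.54e-08). ID3 (1.21; edgeR adjusted p = 2.78e-09), ID1 (0.32; 0.0256) and the E protein TCF12 (0.62; 0.000136) were also higher, whereas the E protein TCF3 was lower (-0.30; 0.000996). Of the E proteins, TCF4 and TCF12 thus rose and TCF3 fell, although the TCF3 call was lost with library totals alone (adjusted p = 0.172) and the ID1 call without DMSO replicate 3, vemurafenib replicate 1 or vemurafenib replicate 3 (up to 0.14).

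Tretinoin added to vemurafenib called 3 of these 15 partners, against 4.47% of all genes (2.2% lower), and all 3 were lower, ID2 (-0.88; edgeR adjusted p = 0.00142), ID3 (-0.58; 0.000164) and TCF3 (-0.37; 0.00202). In the combination relative to DMSO, where 53.6% of all genes were called, 3 were higher, ID2 (1.29), ID3 (0.63) and TCF12 (0.48), and 6 were lower, among them TCF3 (-0.68) and the corepressor genes CTBP2 (-0.62) and HDAC2 (-0.60), whereas ID1 was not called (0.20; edgeR adjusted p = 0.141). The median of the list was -0.20 against 0.03 over all genes.

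Among 21 genes upstream of the factors, 3 were higher and 10 lower with vemurafenib, and 4 were higher and 9 lower in the combination, against 52.6% and 53.6% of all genes called. Their medians were -0.16 and -0.05 on the log2 scale, against 0.02 and 0.03 over all genes. FOSL1, the AP-1 subunit that lies downstream of ERK, had 433.5, 457.5 and 526.3 CPM in DMSO and 53.8, 57.0 and 59.2 CPM in the combination, a log2 fold change of -3.06 (edgeR adjusted p = 2.25e-14). HMGA2, a chromatin architectural factor that activates SNAI1, and TEAD4, the DNA-binding partner of YAP1, were also lower in the combination (-1.53 and -1.16; edgeR adjusted p = 7.62e-11 and 9.98e-09). NOTCH1 (0.87), SMAD3 (0.68) and TGFB1 (0.50) were higher there, at edgeR adjusted p of 1.48e-07, 9.5e-07 and 2e-05.

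SMAD3, the transducer of TGF-beta signals, rose with tretinoin in both settings, from 116.5, 136.4 and 130.2 CPM in DMSO to 236.4, 205.6 and 206.5 CPM, and from 78.1, 80.1 and 76.0 CPM with vemurafenib to 191.6, 215.0 and 205.6 CPM in the combination. Besides SMAD3, tretinoin alone called TGFBR2 higher and TEAD4 lower among the 21 genes, against 5.68% of all genes called, and the TEAD4 call was lost with only the groups compared and without DMSO replicate 2 (adjusted p up to 0.136). The SMAD3 groups were apart in both settings, with log2 fold changes of 0.76 and 1.39 (edgeR adjusted p = 8.78e-06 and 2.59e-09), and the first was 0.69 without tretinoin replicate 1.

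Epithelial genes that these factors are known to repress were mostly faint. Of 20 listed, 11 had enough counts to be tested, and CDH1 (E-cadherin), the classical target of SNAI and ZEB factors, was not among them, with 0 to 8 counts per library. Only 5 of these 11 (CLDN1, CLDN4, DSP, KRT8 and KRT18) reached the level cutoff of the count filter, 0.553 CPM, in more than 1 DMSO library. The other 6 (CLDN7, ESRP1, ESRP2, MAL2, OVOL2 and ST14) entered mainly through libraries with vemurafenib. They are therefore given without a test or a count of calls, and no median of the list is given. Of the 5 genes with enough counts in DMSO, all were called in the combination, against 53.6% of all genes. There 3 were lower (CLDN1, CLDN4 and KRT18), and DSP and KRT8 were higher. With vemurafenib alone the same 3 were lower and DSP was higher, against 52.6% of all genes called, and KRT8 was not called. ESRP1, an epithelial splicing factor, had 0, 2 and 1 counts in DMSO, 17, 19 and 13 counts with vemurafenib and 11, 14 and 17 counts in the combination. CLDN7, a junction gene, had 2 to 3 counts in DMSO and 8 to 15 in the combination, and ST14, a membrane protease, 2 to 4 and 8 to 14 counts. The junction genes CLDN1 and CLDN4 and the keratin KRT18 were lower in the combination, by -1.61, -1.32 and -1.31 on the log2 scale (edgeR adjusted p = 6.4e-06, 2.5e-09 and 2.57e-08). DSP (0.59; edgeR adjusted p = 0.000128) and the keratin KRT8 (0.30; 0.0119) were higher there. DSP was also higher with vemurafenib alone (0.76; edgeR adjusted p = 9.54e-06). The KRT8 call was lost without DMSO replicate 3 or combination replicate 2 (adjusted p up to 0.0617).

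Mesenchymal effector genes were called in both directions. Of 22 listed, 18 were tested, of which 4 were higher and 5 lower with vemurafenib and 6 were higher and 5 lower in the combination, against 52.6% and 53.6% of all genes called. Their medians were 0.00 and 0.02 on the log2 scale, against 0.02 and 0.03 over all genes, with FAP and LOX reaching the level cutoff in 1 and 0 DMSO libraries. FAP, a fibroblast protease, had 10, 5 and 3 counts in DMSO and 17, 28 and 30 in the combination, and is given without a test for that reason. The 6 counted as higher in the combination include FAP, which the filter favors. Higher in the combination were the smooth muscle actin ACTA2 (1.09; edgeR adjusted p = 0.00187) and the microfibril gene FBN1 (1.09; 3.6e-08). The matrix glycoprotein THBS1 (-2.08; edgeR adjusted p = 4.8e-10), fibronectin FN1 (-0.69; 7.22e-05) and the fibronectin receptor subunit ITGA5 (-0.66; 9.05e-06) were lower. With tretinoin alone, where 5.68% of all genes were called, 3 effectors were higher (ITGA5, LOXL2 and TNC) and 2 lower (CALD1 and THBS1). Of these, LOXL2 and THBS1 kept their call in all 13 alternatives, whereas the others reached an adjusted p of 0.09 (ITGA5), 0.14 (TNC) and 0.219 (CALD1), and without tretinoin replicate 1 only the CALD1 call was lost (0.0801).

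**Figure D5:**
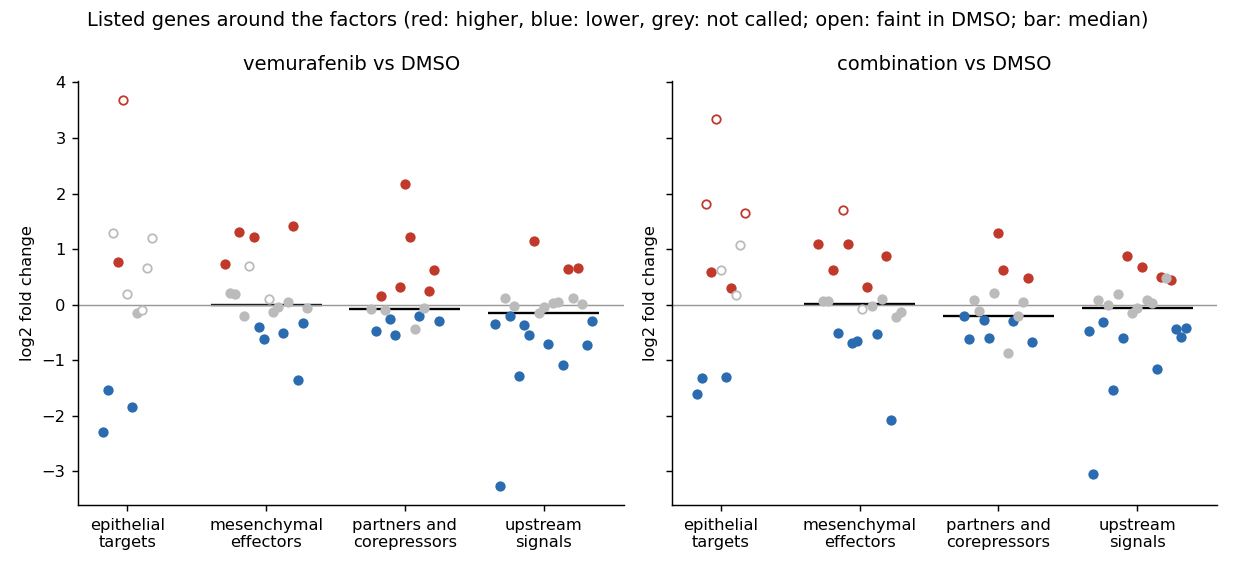
Log2 fold change of each tested gene of the 4 surrounding lists, relative to DMSO, with vemurafenib (left) and the combination (right). Points are genes, red if called higher, blue if called lower and grey if not called, open if they reached the level cutoff in at most 1 DMSO library, and black bars are medians, not drawn for the epithelial list. Of the upstream genes, 10 are lower with vemurafenib and 9 in the combination, and FOSL1 is the lowest point.

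Some markers of the melanocyte lineage and of other cell types moved with treatment, in libraries that all came from A375. Of all tested genes, 52.6% were called with vemurafenib, 53.6% in the combination and 5.68% with tretinoin. The summed level of 7 fibroblast markers was 15.5 to 18.2 CPM in DMSO, 16.8 to 17.9 with tretinoin, 48.8 to 51.0 with vemurafenib and 35.1 to 39.8 in the combination, with PDGFRB, LUM and COL1A1 called higher in both vemurafenib groups. The remaining fibroblast markers were faint in all libraries, with COL1A2 at 2 to 22 counts, COL3A1 at 0 to 11, DCN at 4 to 30 and THY1 at 0 to 5. Of these, DCN had 8 to 13 counts in DMSO and 14 to 30 with vemurafenib. The sum of 4 keratinocyte markers was 12.4 to 16.4 CPM in DMSO, 9.46 to 14.8 with tretinoin, 29.3 to 32.0 with vemurafenib and 26.7 to 35.9 in the combination. KRT14 was called higher over DMSO with vemurafenib (log2 fold change 1.24; edgeR adjusted p = 7.01e-05) and in the combination (1.32; 3.49e-05). KRT5 was called in neither, KRT1 had 0 counts throughout and TP63 had 0 to 11 counts. The 7 melanocyte markers summed to 25.9 to 30.8 CPM in DMSO, 24.0 to 28.6 with tretinoin, 42.1 to 44.1 with vemurafenib and 38.0 to 39.5 in the combination. Among them MITF was called higher over DMSO with vemurafenib (log2 fold change 0.88; edgeR adjusted p = 1.25e-06) and in the combination (0.64; 4.77e-05). PMEL and S100B were called in neither. Of the leukocyte markers, PTPRC, with 13 to 26 counts in DMSO and 37 to 83 in the treated groups, was called higher in all 3 of them, tretinoin included (log2 fold change 1.46; edgeR adjusted p = 0.0121, or 0.0189 without tretinoin replicate 1, and lost without DMSO replicate 1 or 3), whereas CD3E and CD14 had at most 10 counts in any library. The part of these markers in the changes of the factors was not tested.

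Library composition also shifted with vemurafenib. Scaling by library totals alone put the median log2 fold change of all genes at 0.21 with vemurafenib, 0.19 in the combination, 0.11 for the combination over tretinoin and -0.11 for the interaction, against 0.02, 0.03, 0.02 and -0.01 with TMM. With TMM, 4411 genes were higher and 4400 lower with vemurafenib, against 6575 and 2628 with totals alone. The corresponding splits were 4537 and 4440 against 6242 and 2916 for the combination over DMSO, 4026 and 4191 against 5051 and 3271 for the combination over tretinoin, 583 and 368 against 758 and 174 for tretinoin, and 64 and 71 against 36 and 132 for the interaction. Apart from TWIST1 in the combination over DMSO, every call of a tested factor was the same under either scaling.

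Antisense genes overlap exons of 4 factors, and fragments were counted without regard to strand. In union counting, a fragment over exons of both genes is dropped, so a factor can lose counts there. ZEB1-AS1 shares 4.23% of the exon bases of ZEB1, ZEB2-AS1 5.18% of ZEB2, AC003986.2 6.94% of TWIST1 and TCF4-AS2 0.234% of TCF4, of which a further 0.701% lies over the pseudogene RPL21P126. ZEB1-AS1 had 15 to 37 counts and was not called in any of the 6 comparisons in edgeR, and ZEB2-AS1 had 0 to 2 counts.

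The letters before the start sites were examined for the E-box bound by SNAI and ZEB factors (CAGGTG, on both strands), the AP-1 element bound by FOS and JUN proteins (TGANTCA) and the nuclear receptor half-site bound by retinoic acid receptors (AGGTCA). RefSeq start sites (GRCh38) were matched for 6 of the 9 genes, with 21 windows of 250 bases upstream. The windows of PRRX1, PRRX2, TWIST2 and ZEB2 held none of the 3 motifs. The E-box was found in 2 of 7 ZEB1 windows, against 17.5% of 35116 windows of all genes, and the other motifs in 1 of 10 TCF4 windows each, against 6.57% for the AP-1 element and 12.1% for the half-site. The 5 matches are shown, with the motif in capitals, since ZEB1 and TCF4 are the factors whose levels moved and whose windows held a motif. For the first match, the RefSeq start site lies before the annotated start of ZEB1 given above (31318495). The bases that end its window, after the start site, were found in no annotated ZEB1 transcript.
ZEB1, chr10:31318350-31318375, plus strand, E-box at position -57 from its start site, over an exon of ZEB1-AS1: gaggtgacagCAGGTGagggccgggt
ZEB1, chr10:31318966-31318989, plus strand, E-box on the opposite strand at -242, over exons of ZEB1 and ZEB1-AS1: ccccaccaCACCTGaggaaaactt
ZEB1, chr10:31319121-31319146, plus strand, E-box at -85, over an exon of ZEB1: tgtcgtaaacCAGGTGcggtggggag
TCF4, chr18:55510889-55510915, minus strand, AP-1 element at -133, over no annotated exon: gagatcttgtTGATTCAtattttattt
TCF4, chr18:55401911-55401936, minus strand, half-site at -238, over an exon of TCF4: gtcaaggcggAGGTCAttagagtttt
A match of letters is a description and does not show that a factor binds there.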

How the data were processed

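RNA-seq of polyadenylated RNA was available for 12 A375 libraries, grouped and numbered as their titles state. The authors aligned reads to GRCh38.p10 with STAR 2.5.3a, counted fragments over GENCODE 27 genes in union mode without strand, and deposited raw counts with no normalization. The labels give treatments in triplicate but not whether replicates were separate cultures, so p-values measure the spread between these libraries, which may be technical.

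Genes were filtered with filterByExpr, scaled by TMM and fitted in edgeR 4.0.16 (R 4.3.3) with glmQLFit and glmQLFTest, with 1 term per group over all 12 libraries and no block. Benjamini-Hochberg adjustment was made within each of 6 comparisons (threshold 0.05). SNAI2 passed the filter although DMSO replicate 3 lay below its level cutoff. Positions and exon lengths come from GENCODE 29, in which 58084 of 58347 identifiers were found. Exon length is the union of all annotated exons of a gene.

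The factors, the lists and the tests were chosen with earlier results of these data known. Genes of a list were named if among the 3 largest changes in each direction in the combination over DMSO, together with TCF3, TCF12, ID1, ID2 and ID3. Other genes are named where a count of calls was small or to complete a short list, after their values were seen. The fit was tested on simulated data. DESeq2 1.42.0, other scalings, filters and sample sets, a replicate block and leaving out each library were tried as alternatives. The summed level of the leukocyte markers is not reported here.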

Additional observations from a re-analysis of the deposited data

Results flagged for a closer look

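By the interaction test of edgeR, 4 of the 65 tested genes of the surrounding lists were called, where 0.806% of all genes were called. The lists were chosen with earlier results of these data known, so this share is not an independent result about them. KRT18, an intermediate filament keratin, had an interaction of 0.84 on the log2 scale (edgeR adjusted p = 0.012), from -0.30 for tretinoin over DMSO to 0.55 for the combination over vemurafenib. Its levels were 631.1, 800.5 and 682.4 CPM in DMSO, 467.1, 621.7 and 627.9 CPM with tretinoin, 184.2, 187.4 and 213.5 CPM with vemurafenib and 308.1, 275.0 and 270.4 CPM in the combination. The KRT18 call was lost without DMSO replicate 2, vemurafenib replicate 1 or vemurafenib replicate 2 (adjusted p up to 0.0625). ID2, the inhibitor of E proteins, had an interaction of -1.56 (edgeR adjusted p = 0.00685), from 0.68 to -0.88 in the same order. It had 1.98, 2.21 and 2.08 CPM with tretinoin and 3.19, 2.79 and 3.62 CPM in the combination. SMAD3 had an interaction of 0.63 (edgeR adjusted p = 0.00865), being higher with tretinoin in both settings. JUN, an AP-1 subunit named after its values were seen, had an interaction of 0.74 (edgeR adjusted p = 0.0427), from -0.18 to 0.56, and this call was lost in 9 of 18 alternatives (adjusted p up to 0.148), among them library totals alone, a minimum of 10 counts and the fits without DMSO replicate 2 or 3, vemurafenib replicate 1 or 2, or any single combination library. The ID2 and SMAD3 calls held in all 18. Without tretinoin replicate 1 the interactions of KRT18, ID2, SMAD3 and JUN were 0.72, -1.60, 0.70 and 0.62, all called.

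PRRX1 had an interaction of -1.23 on the log2 scale, with every tretinoin library above every DMSO library and every combination library below every vemurafenib library. This difference was not tested, because PRRX1 was chosen for it.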

How the results depend on the processing

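The calls of SNAI2, TCF4, ZEB2, ZEB1, SNAI1 and TWIST2 were the same under every alternative run in the 3 comparisons that add vemurafenib (vemurafenib over DMSO, combination over DMSO, combination over tretinoin). The 2 calls with tretinoin alone became 1 with the DESeq2 Wald test, 0 with no low-count filter and 0 with only the groups compared, and 0 to 1 when single libraries were left out. At an adjusted p below 0.1 the interaction gave 1 factor, SNAI2. With a minimum of 10 counts in every sample PRRX2 was not tested.

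With the replicate number as a block, 0 factors were called with tretinoin alone (adjusted p = 0.0727 for SNAI1 and 0.0558 for SNAI2), and no other count of called factors changed. The log2 CPM of each library, less the mean of its own group, was correlated between libraries of different groups. These deviations correlated at -0.143 to 0.087 over the 18 pairs with the same number. By the mean correlation, 0 of 12 libraries were closest to their own number. The numbers were not treated as pairs.

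Estimates that changed sign were all of genes not called. They were TWIST1 in the interaction (0.002 with DESeq2, 0.001 with DESeq2 size factors, 0.02 with no filter, -0.128 to 0.124 with single libraries left out), TWIST1 with vemurafenib (0.032 with library totals), ZEB1 with tretinoin (0.06 with library totals, -0.059 to 0.026 with libraries left out), TCF4 on adding tretinoin to vemurafenib (0.015 with no filter, 0.001 with the minimum of 10, -0.064 to 0.039 with libraries left out) and PRRX2 there (-0.328 to 0.371).

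Over all genes, the 951 calls with tretinoin alone became 305 with only the groups compared, 1540 with no filter, 1715 at an adjusted p below 0.1 and 379 to 1367 with libraries left out. The DESeq2 test gave 656 higher and 641 lower there. The 749 calls on adding tretinoin to vemurafenib became 1269 with only the groups compared and 460 to 586 with libraries left out. The 135 interaction calls became 276 with DESeq2, 610 with no filter, 75 with the block, 269 at an adjusted p below 0.1 and 60 to 265 with libraries left out. The cause of these differences was not tested.

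Depth limits SNAI2 without vemurafenib (10 to 24 counts) and PRRX2 throughout (6 to 28 counts). The libraries hold 1 cell line, 1 time and 1 concentration, and RNA levels only.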
